A study of Mus musculus with 10 samples.

Results

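The genes described here are 10 genes of macrophages and of the first complement component, C1qa, C1qb, C1qc, Csf1r, Adgre1, Cd68, Lyz2, Mrc1, Cd163 and Cd14. They were chosen by symbol, with earlier results of these data known. All 10 were among the 15507 genes with a value in the table, and all 10 passed the filter on low counts that left 15389 genes for testing. They were measured in germ cell RNA from the testes of 5 WT mice and 5 homozygous GRTH-KI mice aged 45 days, with 1 library per mouse. GRTH is the RNA helicase encoded by Ddx25. The KI mice carry a human GRTH gene with an arginine-to-histidine missense mutation, no treatment is named, and the strain was not given in the sources used here. The germ cell fraction was a suspension of collagenase- and trypsin-treated seminiferous tubules that had passed cell strainers, with no step that selected cells by a marker. Values are normalized counts, which are reads per gene divided by a size factor of the library.

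Between 12722086 and 16422347 reads lay on genes in each library. Normalized counts of Ddx25 were 5198 to 11101 in the WT libraries. They were 146, 194 and 161 in KI libraries 1 to 3, and 2.88 and 1.84 in KI libraries 4 and 5, at or under the 3 reads taken as the lowest usable count. Libraries 1 to 3 of both genotypes also had a lower average read quality than libraries 4 and 5 in the study's table of libraries, so values are given within these groups where they differ. The study describes the samples as germ cells, and markers of these cells were looked at. Markers of other testis cells are given below. The summed level of spermatocyte markers was between 16634 and 23979 normalized counts in WT and between 15403 and 20281 in KI. Of these markers 0 of 8 were called different, although 1 had an adjusted p under 0.05 in limma with a fold under 1.5. All 6 markers of elongating spermatids were lower in KI, with a summed level of 217400 to 374437 in WT and 50710 to 75947 in KI. Of 6 round spermatid markers 1 was called lower, Tssk2, and 4 had an adjusted p under 0.05 (median log2 difference -0.50, summed 22153 to 27162 in WT and 10903 to 19009 in KI).

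Macrophages of the testis lie in the interstitium beside Leydig cells and around the peritubular layer, where they remove debris and dying cells and support steroid-producing cells and an immune-tolerant environment. C1q, which many tissue macrophages produce, is built from A, B and C chains in equal parts and, with the proteases C1r and C1s, starts the classical complement pathway on immune complexes and on dying cells. Signals through the CSF1 receptor keep macrophages alive, while lysosomal enzymes, scavenger receptors and the lipopolysaccharide co-receptor CD14 serve their uptake and sensing functions.

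Expression of the 10 genes was compared between KI and WT with limma on log2(normalized count + 1). A gene was called different at an adjusted p (Benjamini-Hochberg over the 15389 genes) under 0.05 if its fold change also reached 1.5. C1qa, C1qc, Csf1r, Cd68, Lyz2 and Cd14 were called higher in KI, 6 of 10, beside 6.13% of all genes tested. None of the 10 was called lower, beside 8.22% of all genes, and edgeR and DESeq2 on the recovered reads also called 0 lower. In 4 of the 10 (C1qc, Csf1r, Cd68 and Lyz2) every KI library lay above every WT library, which held for 6.80% of all genes. C1qb, Adgre1, Mrc1 and Cd163 did not pass the test. The median log2 difference was 0.67 over the 10 genes and 0.03 over all genes tested, and it was above 0 for each of the 10.

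Relative to all reads on genes (RPM), the 10 genes together took 50.3 to 68.1 RPM in WT and 82.5 to 116 RPM in KI. The ranges did not overlap. RPM is a scaling to library totals, which also moved the median change of all genes upward, as given below. The normalized counts of all genes summed to between 15456693 and 16736057 in WT libraries and between 12939539 and 14599434 in KI libraries. The non-overlap in RPM therefore includes a shift that is not particular to the 10 genes. In a mixed suspension, a larger share of macrophages and more of these RNAs per macrophage cannot be told apart. The share can also change with the number of other cells in the suspension, which was not tested. KI library 5 held the highest KI value for 6 of the 10 genes (C1qa, C1qc, Csf1r, Adgre1, Mrc1 and Cd163). Without it the calls numbered 5, as Cd14 passed the adjusted p threshold no longer (adjusted p = 0.0545), although its log2 change was then 0.69 against 0.65 with all libraries.

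**Figure D1:**
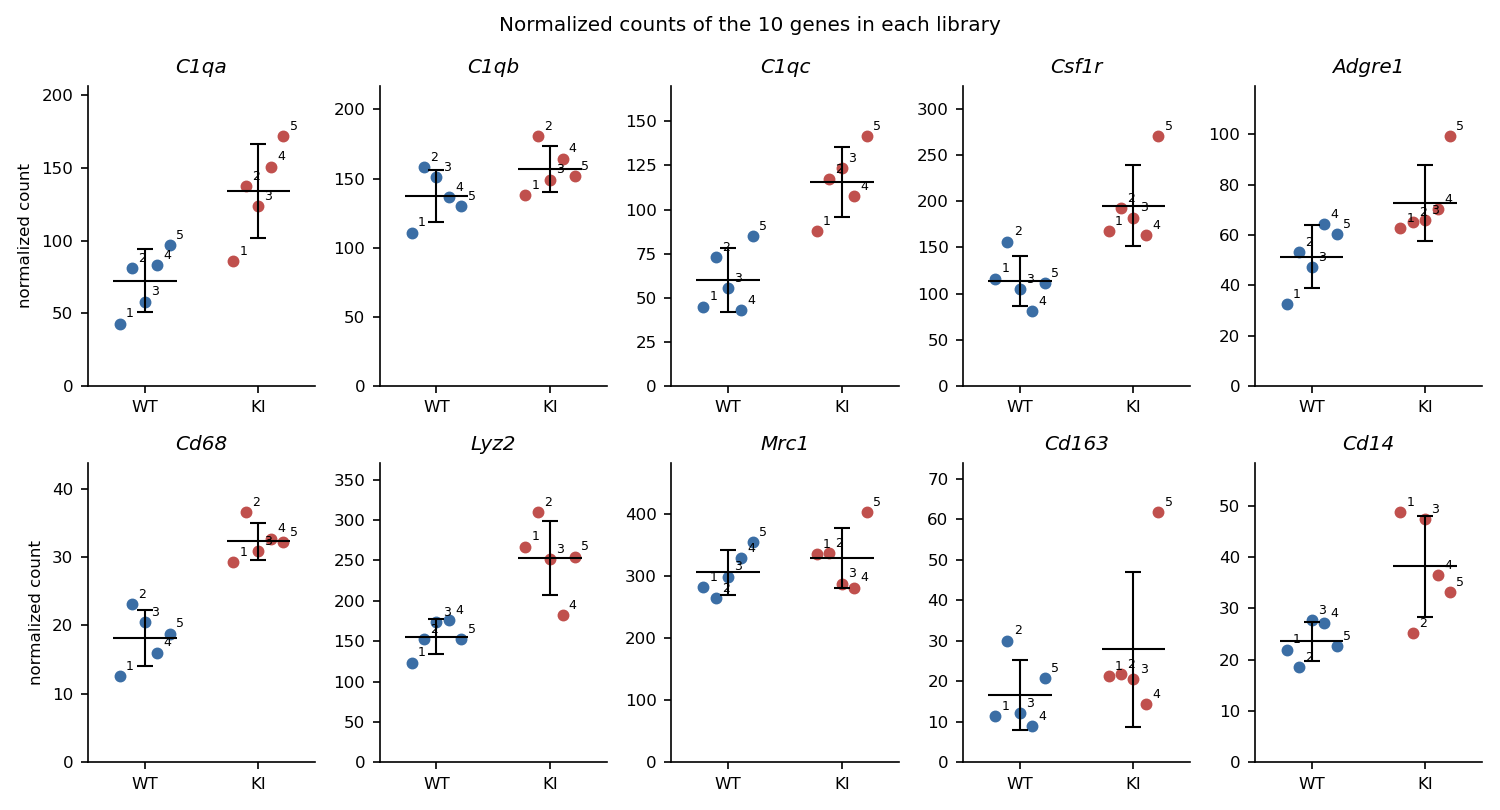
Normalized counts of each gene (vertical axis, from 0, scale differing between panels) in the 5 WT (blue) and 5 KI (red) libraries, with the library number beside each point and the mean ± SD as black bars. The KI points of C1qc, Csf1r, Cd68 and Lyz2 all lie above the WT points, those of Mrc1 and C1qb overlap with WT, and KI library 5 stands apart for Csf1r, Adgre1 and Cd163.

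The 3 genes for the C1q chains lie next to each other on the minus strand of mouse chromosome 4 (mm10), C1qb at 136880126 to 136886200, C1qc at 136889802 to 136892914 and C1qa at 136895916 to 136898844, and no other annotated gene overlaps any of them. The 250 bases before the start were read from RefSeq (GRCm38.p6), whose promoter table held 6 of the 10 genes. C1qa, Csf1r, Adgre1 and Cd14 are named only. They are shown here for C1qb and C1qc because these neighbours differed in response, and for Cd68 and Mrc1 because one was called higher and the other was not. Capitals mark GAGGAA or its reverse complement, a core bound by the myeloid factor PU.1. The window of C1qb is chr4:136886201-136886450 on the minus strand, that of C1qc chr4:136892915-136893164 on the minus strand, that of Cd68 chr11:69666171-69666420 on the minus strand and that of Mrc1 chr2:14229164-14229413 on the plus strand.
C1qb: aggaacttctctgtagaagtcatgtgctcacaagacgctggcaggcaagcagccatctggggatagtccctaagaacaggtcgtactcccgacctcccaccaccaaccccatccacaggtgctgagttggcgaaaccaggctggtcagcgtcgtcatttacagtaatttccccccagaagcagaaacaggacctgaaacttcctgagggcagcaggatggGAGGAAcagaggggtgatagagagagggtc
C1qc: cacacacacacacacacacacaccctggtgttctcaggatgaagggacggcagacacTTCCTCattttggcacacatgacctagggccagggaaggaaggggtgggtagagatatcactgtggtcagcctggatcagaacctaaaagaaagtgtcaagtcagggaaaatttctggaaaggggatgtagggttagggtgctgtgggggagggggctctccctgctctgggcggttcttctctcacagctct
Cd68: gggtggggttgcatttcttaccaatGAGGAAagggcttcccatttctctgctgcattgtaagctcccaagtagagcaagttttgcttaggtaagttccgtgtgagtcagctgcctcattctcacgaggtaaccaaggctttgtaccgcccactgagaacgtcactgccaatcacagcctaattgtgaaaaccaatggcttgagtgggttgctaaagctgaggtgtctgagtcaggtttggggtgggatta
Mrc1: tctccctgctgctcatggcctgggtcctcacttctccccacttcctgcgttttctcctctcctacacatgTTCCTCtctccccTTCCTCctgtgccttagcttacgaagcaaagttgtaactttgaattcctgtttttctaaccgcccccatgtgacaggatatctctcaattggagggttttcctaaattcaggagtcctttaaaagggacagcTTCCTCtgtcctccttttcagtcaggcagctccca
GAGGAA, on either strand, was in 4 of the 6 windows, once each in C1qb, C1qc and Cd68 and at 3 places in Mrc1, and in 23.3% of 32851 promoters of the same length. It was not in the windows of Lyz2 and Cd163. TGACTCA, the site of AP-1, was searched likewise and was in the window of Cd68 alone, at 2 places, against 4.46% of all promoters. GAGGAA was thus present both in genes that were called (C1qc, Cd68) and in genes that were not (C1qb, Mrc1).

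C1qa, the A chain, was measured at 42.9, 80.9, 58.0, 83.3 and 96.9 normalized counts in WT libraries 1 to 5 and at 85.8, 137, 124, 151 and 172 in KI libraries 1 to 5. Only the lowest KI library fell within the WT range. The mean was 72.4 ± 21.6 in WT and 134 ± 32.3 in KI (SD, n = 5 each), a log2 change of 0.90 (SE 0.23, adjusted p = 0.00953). C1qc, the C chain, gave 44.98, 72.8, 55.6, 43.1 and 84.7 in WT and 87.6, 117, 124, 108 and 142 in KI, with no overlap. Its log2 change of 0.96 (SE 0.20, adjusted p = 0.00258), from 60.2 ± 18.1 to 116 ± 19.95, was the highest of the 10 genes. C1qb, the B chain, gave 111, 158, 151, 136 and 130 in WT and 138, 181, 149, 164 and 152 in KI. Most of the values of both genotypes lay in the same range. The means were 137 ± 18.6 and 157 ± 16.3, and the log2 difference of 0.20 (SE 0.13, adjusted p = 0.309) did not pass the test.

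Because the chains are counted in the same libraries, their ratios do not depend on the scaling. This comparison was added after the values were seen. The ratio of C1qb to C1qa normalized counts was 2.03 ± 0.564 in WT and 1.22 ± 0.270 in KI (SD, n = 5 each), a log2 difference of -0.71 (SE 0.24, exact two-sided permutation p = 0.0159). The ratio of C1qb to C1qc was 2.41 ± 0.610 in WT and 1.38 ± 0.229 in KI, a log2 difference of -0.78 (SE 0.21, exact permutation p = 0.0238). With Benjamini-Hochberg adjustment over the 3 pairs both stood at p = 0.0357, by exact permutation over 252 arrangements whose smallest p is 0.00794. Both ratios were lower in KI in 5 of 5 pairs of libraries of the same number, a pairing the sample labels do not name. Exact permutation within these pairs gave p = 0.0625 for each, the smallest that 5 pairs allow. For C1qa to C1qc the ratio was 1.24 ± 0.395 in WT and 1.15 ± 0.173 in KI, and the log2 difference of -0.06 (SE 0.20, exact permutation p = 0.817) did not pass. Leaving out 1 library at a time, the difference ranged from -0.85 to -0.60 for C1qb to C1qa and from -0.93 to -0.67 for C1qb to C1qc, with exact permutation p up to 0.0317 and 0.0476. It was -0.79 and -0.77 in libraries 1 to 3 and -0.60 and -0.78 in libraries 4 and 5, where the smallest p that 3 against 3 and 2 against 2 libraries allow is 0.1 and 0.333 (exact permutation).

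Csf1r encodes the receptor for CSF1, on which most tissue macrophages depend. It is on chromosome 18, where Hmgxb3 and Mir6983 overlap it, and the strand setting of the counting was not given in the sources used here. Normalized counts were 116, 156, 105, 81.2 and 111 in WT and 167, 192, 182, 163 and 270 in KI. Every KI library lay above every WT library, and KI library 5 stood apart from the other 4. The mean rose from 114 ± 27.1 to 195 ± 43.7 (SD, n = 5 each), a log2 change of 0.78 (SE 0.18, adjusted p = 0.00473), and without KI library 5 the change was 0.65 (adjusted p = 0.0091). Csf1r kept an adjusted p under 0.05 in each of the 24 other settings tried, with log2 changes from 0.54 to 1.14. The lowest was that of libraries 1 to 3 alone (limma adjusted p = 0.0158), where its fold was under 1.5. The highest was that of libraries 4 and 5 alone (limma adjusted p = 0.0165).

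Adgre1 (chromosome 17, 57358686 to 57483529) encodes F4/80, the surface protein most used to mark mouse macrophages. It was measured at 32.4, 53.2, 47.1, 64.2 and 60.2 in WT and at 62.8, 65.2, 65.9, 70.2 and 99.4 in KI. KI library 1 alone fell within the WT range. The means were 51.4 ± 12.5 and 72.7 ± 15.1, and the log2 difference of 0.51 (SE 0.20) had an adjusted p of 0.0833. With the library number as a replicate block the same difference had an adjusted p of 0.0296, under the threshold, but the fold stayed under 1.5. Without KI library 5 the difference was 0.39 (adjusted p = 0.188).

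Cd68 (chromosome 11, 69664213 to 69666170) encodes a heavily glycosylated protein of the endosomes and lysosomes of macrophages. It was counted at 12.6, 23.1, 20.53, 16.0 and 18.8 in WT and at 29.2, 36.5, 30.9, 32.7 and 32.2 in KI. The lowest KI value exceeded the highest WT value, although both groups rested on few reads. The mean went from 18.2 ± 4.08 to 32.3 ± 2.71, a log2 change of 0.82 (SE 0.21, adjusted p = 0.0111). In libraries 1 to 3 alone the change was 0.79 (adjusted p = 0.0568), and in libraries 4 and 5 alone it was 0.86 (adjusted p = 0.187).

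Lyz2 (chromosome 10, 117277541 to 117282272) encodes the lysozyme of macrophages and neutrophils. Its near-identical neighbour Lyz1 had no row in the table, so reads that the copies share may have been counted on Lyz2. Values were 123, 153, 174, 177 and 152 in WT and 267, 309, 251, 183 and 255 in KI. KI library 4 lay just above the highest WT library and the other 4 well above. The mean rose from 156 ± 21.4 to 253 ± 45.6, a log2 change of 0.69 (SE 0.15, adjusted p = 0.00306). Within libraries 1 to 3 the log2 change was 0.88 (adjusted p = 0.000162) and within libraries 4 and 5 it was 0.39 (adjusted p = 0.282). The interaction of genotype with the read quality group had a limma adjusted p of 0.359 for Lyz2. It was under 0.05 for 0 of the 10, beside 0.247% of all genes. By unadjusted p also 0 of the 10 were under 0.05, a share not taken over all genes. The lowest unadjusted p in limma were 0.0701 for Csf1r and 0.0717 for Lyz2.

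Mrc1 (chromosome 2, 14229414 to 14332023) encodes the mannose receptor CD206, a scavenger receptor of resident macrophages, and the microRNA gene Mir511 lies within it. It had the most reads of the 10 genes, with 282, 265, 300, 329 and 356 normalized counts in WT and 335, 337, 288, 282 and 403 in KI. The groups overlapped over nearly their whole ranges. Means of 306 ± 36.4 and 329 ± 48.7 gave a log2 difference of 0.10 (SE 0.12, adjusted p = 0.616). Cd163 (chromosome 6, 124304651 to 124330527), the receptor for haptoglobin-haemoglobin complexes, was low, at 11.5, 30.1, 12.1, 9.03 and 20.7 in WT and 21.2, 21.7, 20.6, 14.4 and 61.6 in KI. KI library 5 held a value far above the rest. The log2 difference of 0.65 (SE 0.39, adjusted p = 0.254) fell to 0.32 (adjusted p = 0.549) without that library.

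Cd14, on chromosome 18, encodes the co-receptor that hands lipopolysaccharide to TLR4. Counts of 22.0, 18.5, 27.8, 27.1 and 22.6 in WT stood against 48.7, 25.2, 47.4, 36.5 and 33.1 in KI. KI library 2 lay within the WT range and the other 4 above it. The mean was 23.6 ± 3.85 in WT and 38.2 ± 9.89 in KI, a log2 change of 0.65 (SE 0.22, adjusted p = 0.0469). This was the call nearest the threshold, and it was lost in 12 of 23 other settings, including 9 of the 10 in which 1 library was left out (adjusted p from 0.0224 to 0.122 over those 10).

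Exon lengths were those of GENCODE release M21, with the exons of all transcripts of a gene merged, while reads were counted on RefSeq genes. The order of the genes depends on these lengths. Per kilobase of annotated exon, the mean WT level was highest for C1qb, at 126 ± 17.1 normalized counts per kilobase (SD, n = 5). Lyz2 followed at 118 ± 16.2, and the WT ranges of C1qb and Lyz2 overlapped. C1qa at 69.6 ± 20.8 came next, and no WT library of C1qa reached the WT range of Lyz2. Mrc1 at 48.1 ± 5.72, C1qc at 31.2 ± 9.35, Csf1r at 19.7 ± 4.69, Adgre1 at 15.9 ± 3.86, Cd68 at 14.5 ± 3.25 and Cd14 at 13.6 ± 2.22 followed, each overlapping its neighbour. Cd163 was last at 3.05 ± 1.59, with no overlap. In KI the order began with Lyz2 at 192 ± 34.7 normalized counts per kilobase, then C1qb at 144 ± 15.0 and C1qa at 129 ± 31.1, and C1qc at 59.9 ± 10.3 stood before Mrc1 at 51.7 ± 7.64.

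To compare the 10 genes with leukocytes as a whole, the mean log2 level of 11 genes used by all leukocytes (such as Ptprc, which encodes CD45) was subtracted in each library. On this relative scale C1qc was called higher in KI, with a log2 change of 0.64 (SE 0.21, adjusted p = 0.0161), 1 of 10 beside 2.49% of all genes, and none of the 10 was called lower, beside 19.0% of all genes. C1qa stood at 0.58 (SE 0.22, adjusted p = 0.0407), just under the fold threshold. Csf1r at 0.46, Cd68 at 0.50 and Lyz2 at 0.37 had adjusted p of 0.0615, 0.166 and 0.137. With the replicate block Csf1r had an adjusted p of 0.0175 on this scale, with its fold still under 1.5. Mrc1 at -0.22 and C1qb at -0.12 were the genes below 0, with adjusted p of 0.350 and 0.632. The median was 0.35 over the 10 genes and -0.29 over all genes.

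The reference itself did not move as one. Laptm5 (log2 change 0.95) and Coro1a (0.95) rose, and Nckap1l, a regulator of actin in blood cells, fell from 920 ± 57.5 to 412 ± 40.0 normalized counts (log2 change -1.16, adjusted p = 4.49e-07). These 3 are named because they were called. The 11 reference genes together summed to 1207 to 1434 normalized counts in WT and 870 to 923 in KI. Nckap1l thus held most of this sum in WT. Whether Nckap1l reads came from leukocytes was not tested. With Nckap1l and Vav1 left out of the reference, a choice made after seeing the data, C1qc stood at 0.40 (adjusted p = 0.134) and none of the 10 was called. The call of C1qc on this scale was lost likewise with the other macrophage genes as reference.

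**Figure D2:**
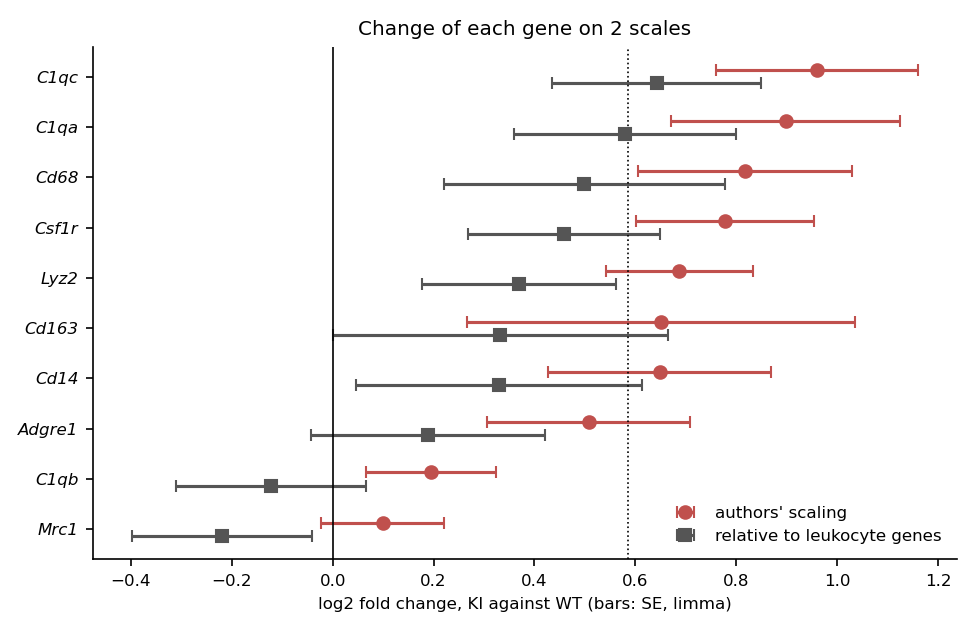
Log2 fold change of each gene between KI and WT (horizontal axis) with its SE from limma, on the authors' scaling (circles) and relative to 11 leukocyte genes of the same library (squares), with the 1.5-fold threshold as a dotted line. C1qc and C1qa lie furthest to the right on both scales, and Mrc1 and C1qb lie nearest 0 on the first scale and below 0 on the second.

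The genes that act with the 10 were taken from 9 lists, chosen with earlier results of these data known. Of their genes 105 were tested: 29 were called higher in KI and 2 lower, against 6.13% and 8.22% of all genes. The median log2 difference was 0.37. The same shares of all genes apply to the counts of each list below. In the classical complement pathway 6 of 8 were called higher and none lower (median 0.75). The proteases that bind C1q rose, C1ra from 109 ± 26.4 to 215 ± 30.8 (log2 change 0.99, adjusted p = 0.000466) and C1s1 from 122 ± 26.3 to 243 ± 34.0 (1.01, adjusted p = 0.000445). Their inhibitor Serping1 rose as well, from 213 ± 46.3 to 437 ± 83.7 (1.04, adjusted p = 0.000310). Every KI library lay above every WT library for these 3 genes. Of the genes for C4, which C1s cleaves first, C4b, at 522 ± 54.2 and 636 ± 62.6, differed by 0.29 (adjusted p = 0.0558) and C4a by 0.02 (adjusted p = 0.963), and neither was called. C2 and C3, which are cleaved after it, each changed by 0.64 (adjusted p = 0.0200 and 0.0104). C1rl was the other gene called.

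Among 6 genes of the lectin, alternative and terminal pathways 2 were called higher and none lower (median 0.20). Masp1, the lectin pathway protease, rose from 25.2 ± 6.37 to 70.4 ± 9.57 (log2 change 1.47, adjusted p = 6.87e-05). The list had 12 more genes with no row in the table, Cfb and Hc (C5) among them. Of 12 complement receptors and regulators 2 were called higher (median 0.34). These were Itgam, the alpha chain of complement receptor 3, with a log2 change of 1.05 (adjusted p = 0.0176) at 10.4 ± 3.62 and 22.6 ± 7.17, and Cd59b, a membrane inhibitor of the terminal complex, with 1.33 (adjusted p = 0.00185). The partner chain Itgb2 (0.54, adjusted p = 0.102) and the C3a receptor gene C3ar1 (0.37, adjusted p = 0.435) were not called, and C5ar1 and Vsig4 had no row.

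On the side of the CSF1 receptor, 4 of 10 genes were called higher and none lower (median 0.64). Its ligand gene Csf1 rose from 54.6 ± 13.9 to 99.9 ± 23.2 (log2 change 0.87, adjusted p = 0.00516), with no overlap between genotypes. The transcription factors of myeloid cells Cebpb (1.10, adjusted p = 0.00922), Irf8 (0.79, adjusted p = 0.00591) and Maf (0.81, adjusted p = 0.0362) were the others. The adaptor Tyrobp, at 0.78, had an adjusted p of 0.0915. The second ligand gene Il34 and the factor gene Spi1, which encodes PU.1, had no row.

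Of 12 genes around CD14 and TLR4, 2 were called higher and 1 lower (median 0.32). Tlr4 itself was low but did not overlap, at 7.62 ± 0.874 in WT and 20.4 ± 4.92 in KI (log2 change 1.28, adjusted p = 0.00235). The adaptor Ticam1 was the other gene called higher, and Irak4, a kinase of the same pathway, fell from 106 ± 10.2 to 65.7 ± 5.85 (-0.68, adjusted p = 0.00166). Lbp, whose product carries lipopolysaccharide to CD14, differed by 0.52 (adjusted p = 0.101).

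Beside Mrc1 and Cd163, 2 of 15 scavenger receptor and iron genes were called higher (median 0.35), Stab1 (log2 change 0.70, adjusted p = 0.0346) and Blvrb (0.70, adjusted p = 0.0364). Hmox1, the enzyme that degrades haem taken up through CD163, differed by 0.20 (adjusted p = 0.443). Of 17 lysosomal genes 4 were called higher, all cathepsins (median 0.32). Ctsh changed by 0.93 (adjusted p = 0.00182), Ctss by 0.87 (adjusted p = 0.00202) and Ctsc by 0.83 (adjusted p = 0.000414), and Ctsb was the 4th. In the list of efferocytosis, the uptake of dying cells, 1 of 12 was called higher, beside 6.13% of all genes. This was Adgrb1, with 1.02 (adjusted p = 0.00154).

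Of 13 other macrophage genes 6 were called higher and 1 lower (median 0.68). F13a1, the A subunit of coagulation factor XIII, rose from 98.3 ± 32.8 to 168 ± 52.2 (log2 change 0.78, adjusted p = 0.0206), and Cx3cr1, the fractalkine receptor, rose from 81.0 ± 12.5 to 123 ± 20.98 (0.59, adjusted p = 0.0117). The others were Fcgr2b, Fcer1g, Ccr2 and Cybb. Aif1, which encodes the macrophage marker IBA1, went the other way, from 3016 ± 501 to 1408 ± 253 (-1.10, adjusted p = 5.88e-05). Elongating spermatid markers fell in the same libraries. Whether Aif1 reads came from macrophages was not tested.

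**Figure D3:**
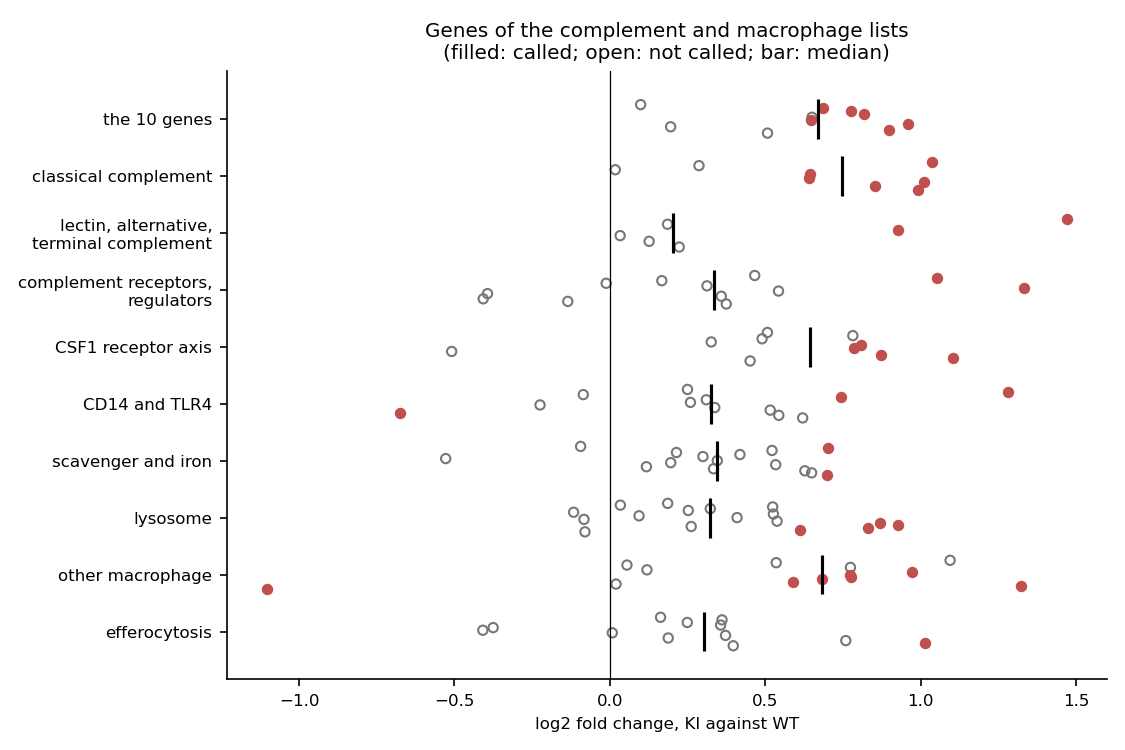
Log2 fold change between KI and WT (horizontal axis) of each tested gene of the 10 genes and of 9 lists, with called genes filled, others open and the median of each list as a bar. Medians run from 0.20 for the lectin, alternative and terminal complement list to 0.75 for the classical pathway, and Aif1 (-1.10) and Irak4 (-0.68) are the filled points left of 0.

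Markers of other cells of the testis moved with the 10 genes to different degrees. Of 7 Leydig cell markers 3 were called higher in KI, Cyp11a1, Cyp17a1 and Insl3 (median log2 difference 0.69), and their summed level was 10291 to 18066 normalized counts in WT and 14779 to 25692 in KI. Of 7 endothelial markers 2 were called higher, Cdh5 and Vwf (median 0.17, summed 287 to 408 in WT and 452 to 853 in KI). Of 8 Sertoli cell markers none was called by limma at the fold of 1.5 (median 0.19). Their summed level was 1206 to 2039 in WT and 1472 to 2145 in KI. None of 7 spermatogonial markers was called either (median 0.28). In each of these lists 1 marker had an adjusted p under 0.05 in limma but a fold under 1.5. An unadjusted p under 0.05 was held by 1 Sertoli cell and 2 spermatogonial markers. In KI library 5 the 10 genes, the Leydig list and the endothelial list all had their highest mean level of the 10 libraries. Their part in the results was not tested.

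Markers of other blood cells were few. None of 4 B cell and none of 4 mast cell markers had a row, and 1 of 7 neutrophil markers did (Mpo, log2 difference -0.03). Of the T cell markers 3 of 7 had a row, with a sum of 25.4 to 99.0 normalized counts in WT and 33.1 to 60.8 in KI, and none was called. Of 4 dendritic cell markers 2 had a row, Flt3 (log2 difference -0.57) and Zbtb46 (0.34), summing to 184 to 299.5 in WT and 213 to 281 in KI, and both had an unadjusted p under 0.05 in limma but neither was called. Cd3e, Cd3g, Cd4 and Cd8a, which define T cells, and S100a8 and S100a9, which define neutrophils, were among those with no row. Of 5 red cell genes Hba-a1 was called higher and Alas2 lower (summed 403 to 605 in WT and 527 to 981 in KI).

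**Figure D4:**
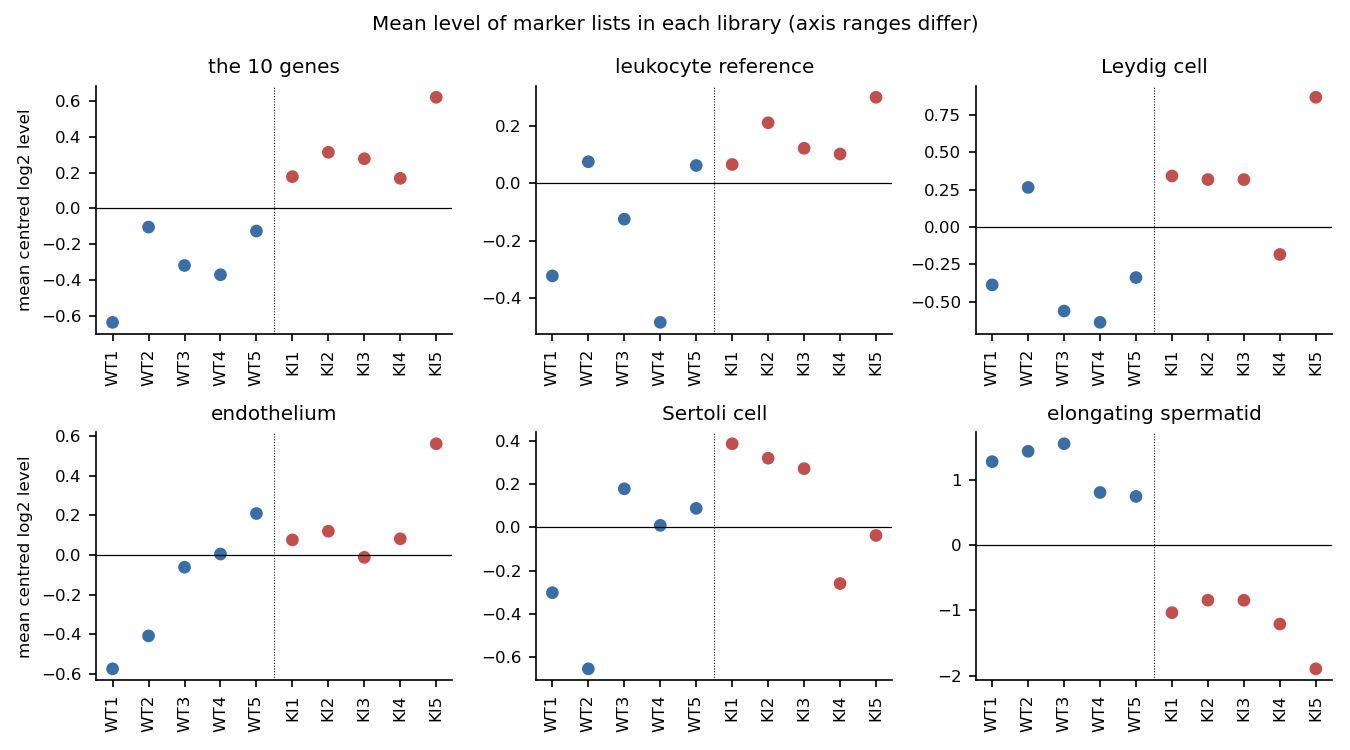
Mean over the genes of each list of the log2(normalized count + 1) centred per gene (vertical axis, range differing between panels), by library, WT in blue and KI in red. The 10 genes lie below 0 in every WT library and above 0 in every KI library, the Leydig and endothelial lists share their highest value in KI library 5, and elongating spermatid markers run the opposite way.

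The mean profile of the 10 genes was compared with every other gene of at least 50 normalized counts, after the mean of each genotype was removed, over the 10 libraries. The 10 genes most like it were Rtn4rl1 (Pearson r = 0.950), Hba-a1 (0.934), Igfbp4 (0.934), Apoe (0.926), Dpysl2 (0.913), F13a1 (0.905), Lamb2 (0.903), Slc41a1 (0.889), Hist1h1t (0.888) and Zbtb45 (0.876). F13a1 is the macrophage gene among them. These correlations share libraries and their depth, and no p is given. Of the 10, Rtn4rl1, Hba-a1, Igfbp4, F13a1 and Lamb2 were called higher in KI (log2 changes 1.49, 0.74, 0.88, 0.78 and 0.79), and Apoe, the apolipoprotein that macrophages and other cells secrete, differed by 0.29 (adjusted p = 0.0921).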

How the data were processed

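Germ cell RNA of 5 WT and 5 KI mice was sequenced (poly(A) RNA, paired ends), 1 library per mouse. STAR alignment to mm10, gene counts by the E/M method of Partek (RefSeq_v91) and division by DESeq2 size factors were done by the authors (versions not given in the sources used here). The deposited values are this signal, a normalized count. For 100% of the values under 5000 reads they were whole multiples of 1 read, within 0.1 of a read, so reads were recovered. Columns not assigned to a library numbered 0. The file also holds fold changes and p-values of the authors' comparison, which were not used. Depth was 12722086 to 16422347 reads per library. A floor of 3 reads corresponds to 2.61 to 3.62 normalized counts, and it covers counting error only.

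Genes that passed filterByExpr of edgeR (4.0.16) were tested with limma (3.58.1, R 4.3.3) with a variance trend on log2(value + 1), a scale that understates changes of low genes, with Benjamini-Hochberg adjustment over all genes tested. A call needs an adjusted p under 0.05 and a fold of 1.5, the thresholds of the study. For single genes, losing or gaining a call in another setting refers to the adjusted p alone. Fold changes are on the log2(value + 1) scale. The members and gene lists were chosen with earlier results of these data known. Named genes were the 10 genes, up to 3 called genes per list and direction with a mean of at least 50, 20 partners of the 10 genes, Ddx25 and the 10 genes of most similar profile, and others named were called or were chosen after their values were seen. The values of 1 gene that this rule names are not reported here. Ratios of C1q chains were compared by exact two-sided permutation of library labels. The code was tested on simulated data. Libraries of the same number deviated together (r = 0.306, 0.105, 0.280, 0.216 and 0.462 after removing genotype means), so the number was used as a replicate block in an alternative. Alternatives were edgeR's quasi-likelihood test and DESeq2 (1.42.0) on the recovered reads, other scalings, filters, pseudocounts, covariates and subsets of libraries, and other leukocyte references. Positions are those deposited, on mm10, and overlaps and exon lengths come from GENCODE release M21.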

Additional observations from a re-analysis of the deposited data

Results flagged for a closer look

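Each of 98 groups of 5 libraries (49 named genes) was tested for 1 library far from the others by Dixon's ratio, which flags about 1 in 20 groups by chance. KI library 5 was far above the other 4 KI libraries for 3 of the 10 genes, with 270 normalized counts of Csf1r (others 163 to 192), 99.4 of Adgre1 (others 62.8 to 70.2) and 61.6 of Cd163 (others 14.4 to 21.7). In the same library C2 stood at 518, Lbp at 112, Rtn4rl1 at 209, Hba-a1 at 288 and Slc41a1 at 561, all above the other KI libraries, and Aif1 at 960 lay below them. WT library 4 was low for Maf, with 19.1 against 46.1 to 51.9, and WT library 1 was low for Igfbp4, with 92.1 against 143 to 150. Rtn4rl1, Hba-a1, Slc41a1 and Igfbp4 were named for their likeness to the mean profile of the 10 genes. That profile was highest in KI library 5 (0.81) and lowest in WT library 1 (-1.13). The flags of these genes thus follow from how they were chosen and are not separate observations.

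The effect of genotype on Ddx25 differed between libraries 4 and 5 and libraries 1 to 3, with an interaction of -6.25 on the log2 scale in limma. No member of the 10 genes had an interaction with an adjusted p under 0.05 in the same fit. The cause of these differences was not tested.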

How the results depend on the processing

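Of the 10 genes, 6 were called higher and 0 lower. With the replicate block the number was 6, and the block ended no call among the named genes, while Adgre1, C4b, Lbp and Apoe, and Csf1r relative to leukocyte genes, gained an adjusted p under 0.05 with it. Leaving out 1 library at a time gave 5 to 6. With scaling on spermatocyte markers 3 were called, although the log2 changes of the lost C1qa, Cd68 and Cd14 were larger (1.00, 0.91 and 0.74), and there were 3 in libraries 1 to 3 alone and 2 in libraries 4 and 5 alone, where fewer samples entered. Scaling to library totals moved the median of all genes to 0.25, upper quartile scaling to 0.12 and spermatocyte scaling to 0.13. C1qb passed the adjusted p threshold under library totals alone. Mrc1 turned to -0.0218 in libraries 4 and 5 alone. The number of pathway genes called higher, 29, became 53 with library totals, 18 with spermatocyte scaling, 17 at a filter on a mean of 50 (fewer genes tested), 11 in libraries 4 and 5 alone and 23 to 34 leaving out 1 library. The number called lower, 2, became 1 with library totals, upper quartile or spermatocyte scaling and 2 to 3 leaving out 1 library. C3ar1 turned to -0.16 in libraries 1 to 3 alone and Dpysl2 to 0.0895 with library totals.

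Relative to leukocyte genes, 1 gene was called higher. This became 2 with no fold threshold and with a pseudocount of 10, 3 in libraries 1 to 3 alone, and 0 in libraries 4 and 5 alone, with the median of the reference, with other macrophage genes as reference, and with the 2 references chosen after seeing the data (without Nckap1l and Vav1, and other macrophage genes without Aif1). It was 0 to 2 leaving out 1 library, and 0 without KI library 3. Mrc1 was called lower with the median of the reference (-0.60), the 1 such call at the fold of 1.5. By adjusted p alone Mrc1 was also lower with other macrophage genes (-0.41, adjusted p = 0.0395) and with those without Aif1 (-0.53, 0.00915), as was C1qb with the latter (-0.43, 0.0423). Lyz2 turned to -0.0176 in libraries 4 and 5 alone. With the median of the reference Adgre1 stood at -0.19, Lyz2 at -0.0142, Cd163 at -0.0510 and Cd14 at -0.0538. Adgre1 also turned to -0.00651 with other macrophage genes, -0.0531 without Nckap1l and Vav1 and -0.12 with other macrophage genes without Aif1. For the ratio of C1qa to C1qc, -0.06 turned to 0.0176 in libraries 1 to 3 alone and ranged from -0.15 to 0.11 leaving out 1 library. The ratios of C1qb to C1qa (-0.79 and -0.60) and to C1qc (-0.77 and -0.78) kept their direction in libraries 1 to 3 and 4 and 5 alone, where no exact p under 0.05 is possible. With the replicate block they stood at -0.71 and -0.78, with the smallest exact p that 5 pairs allow (0.0625). The causes were not tested.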

Other observations

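Among genes of cells that surround the tubules, the contractile genes listed as peritubular myoid markers did not move together. Acta2, which encodes smooth muscle actin, rose from 47.7 ± 11.4 to 81.2 ± 14.6 normalized counts (log2 change 0.78, limma adjusted p = 0.0122), and Des, which encodes desmin, rose from 11.9 ± 6.53 to 24.2 ± 8.76 (1.04, adjusted p = 0.0402). Actg2, an enteric smooth muscle actin, fell from 3325 ± 686 to 1279 ± 225 (-1.37, adjusted p = 1.25e-05). Actg2, like Aif1 and Nckap1l, had high counts in WT and fell in KI (median of the 5 tested markers -0.23, with Myh11 at -0.30 and Tagln at -0.23, not called). These genes were chosen after their values were seen. Whether Actg2 reads came from myoid cells was not tested. Insl3, the peptide hormone of Leydig cells, rose from 6904 ± 1685 to 12289 ± 3367 (0.82, adjusted p = 0.00551).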
